A study of Mus musculus with 12 samples.

Results

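Fibroblasts sorted as NCAM-negative from mouse mammary tumours (m2cafneg in the labels) were compared with perivascular cells sorted from the same tumours (vcaf). The comparison takes every library whose label names either population, which is 6 of the 12 libraries of the study, 3 of each population, and pairs them by the mouse number in the label (27, 30 and 31). All animals were FVB mice carrying MMTV-PyMT, 10 weeks old and untreated, and a viral promoter active mainly in mammary epithelium drives the polyoma middle T oncogene in this strain, so the tumours arise spontaneously in the gland. Dead cells and cells carrying CD45, CD31 or EPCAM were gated out of both populations, and both were positive for PDGFRb and negative for Ly6C. The m2cafneg gate then took cells without CD146 that carried PDGFRa and lacked NCAM. The vcaf gate took cells with CD146 that lacked PDGFRa. The other 6 libraries, an NCAM-positive counterpart of m2cafneg (m2cafpos) and a Ly6C-positive population (icaf), were used for the estimate of spread, and m2cafpos also for a test against m2cafneg. The labels do not say whether the tumours of a mouse were pooled, and each population of a mouse is a single library. Each mouse gave 1 library of each population, so n = 3 throughout, and values in sets of 3 are given in the order of mice 27, 30 and 31.

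Pericytes and vascular smooth muscle cells wrap the endothelial tube, contract or relax in response to vasoactive hormones and nitric oxide, and depend on PDGF and Notch signals from the endothelium. Matrix fibroblasts lie outside this layer, lay down and remodel collagen, elastic fibres and proteoglycans, and secrete growth factors and cytokines. Both lineages express PDGFRb, which is why a sort on this receptor alone does not separate them, and tumour stroma holds both.

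Pericyte, contractile and ion channel genes were higher in vcaf for most of the members tested, and collagen, proteoglycan and elastic fibre genes were higher in m2cafneg for most of theirs, by the counts given with each list. Rgs5 (ENSMUSG00000026678, chromosome 1, 169655501 to 169695813; positions here and below are on GRCm38), a regulator of G protein signalling that marks pericytes, was measured at 43.1, 70.3 and 357 CPM (reads of a gene scaled to a fixed library total) in m2cafneg and at 51485, 41639 and 31133 CPM in vcaf. Dcn (ENSMUSG00000019929, chromosome 10, 97479609 to 97518143), which encodes the collagen-binding proteoglycan decorin, was measured at 4642, 9505 and 3419 CPM in m2cafneg and at 37.9, 81.1 and 78 CPM in vcaf. For both genes the lowest library of the high population lay above the highest library of the other. In the fit on log2(CPM + 1), with limma and Benjamini-Hochberg adjustment over 15456 genes, Rgs5 was higher in vcaf by 8.61 ± 0.51 log2 (SE; adjusted p = 8.03e-08) and Dcn was higher in m2cafneg by 6.4 ± 0.26 log2 (adjusted p = 4.34e-09).

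Of the 15456 genes tested, 1959 were higher in m2cafneg (12.7%) and 4981 were higher in vcaf (32.2%) at an adjusted p below 0.05. This uneven split depended on the scale. With CPM divided by the total of a library, the median gene differed by -0.26 log2 (m2cafneg minus vcaf), and after rescaling by median-of-ratios size factors it differed by -0.03, with 2679 genes higher in m2cafneg (17.3%) and 1928 higher in vcaf (12.5%). Of the calls on the CPM scale, 1950 of those for m2cafneg and 1928 of those for vcaf were shared with the rescaled fit, and 0 were called in the opposite direction. Differences below are on the CPM scale and are read against the median of -0.26. Counts of list members are likewise read against the shares of all genes, 12.7% for m2cafneg and 32.2% for vcaf (17.3% and 12.5% after rescaling). Differences of at least 3 log2 were more often in favour of m2cafneg, with 213 genes higher in m2cafneg and 158 higher in vcaf, and 243 and 136 after rescaling. By level alone, all 3 m2cafneg libraries lay above all 3 vcaf libraries for 12.9% of genes, and the reverse held for 34.1%. Read totals were 44452041 to 54102316 per library. A single read was thus worth 0.0185 to 0.0225 CPM, and where no read was found the level may be up to 0.0675 CPM (3 reads, counting error only). Across genes, Pearson r was 0.972 to 0.980 among m2cafneg libraries, 0.977 to 0.982 among vcaf libraries and 0.875 to 0.917 between the populations, where genes are not independent replicates.

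**Figure D1:**
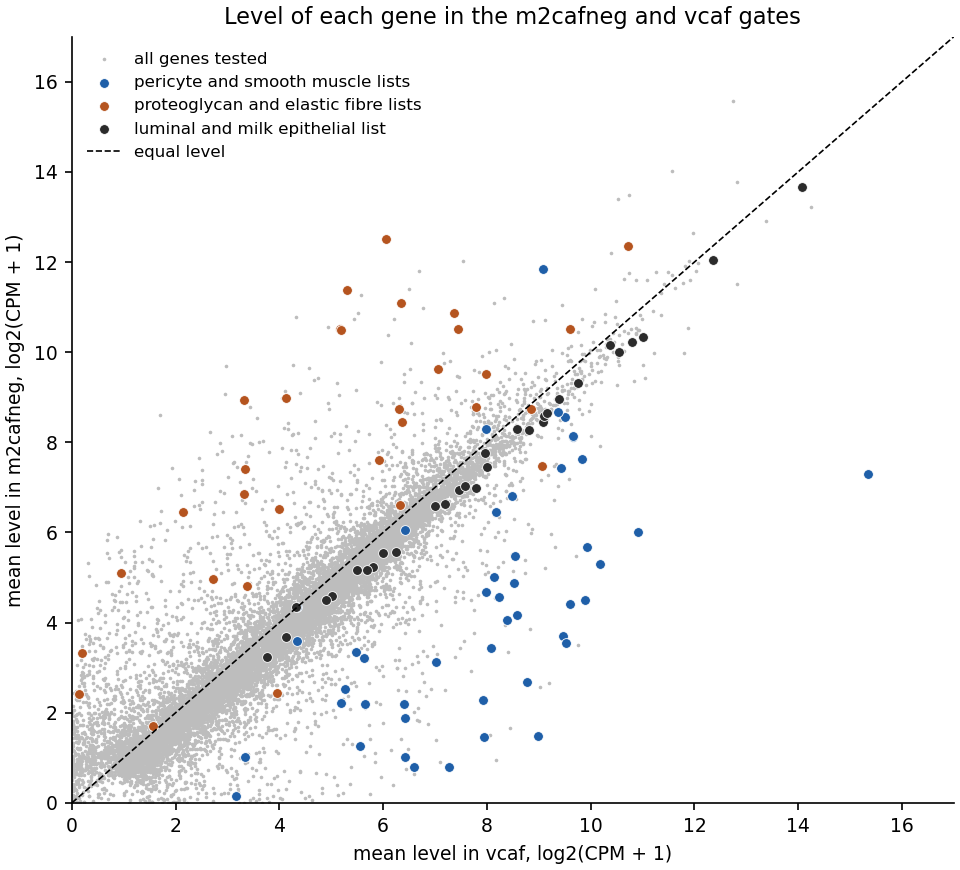
Mean level of each tested gene in vcaf (x axis) and m2cafneg (y axis), both as log2(CPM + 1) over 3 libraries. Pericyte and smooth muscle genes lie below the line of equal level and proteoglycan and elastic fibre genes above it, with a few exceptions in each group, while the luminal and milk genes of the epithelium run along the line.

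Of the sort genes, Pdgfra and Mcam followed the gates between m2cafneg and vcaf, and Ncam1 followed the gate between m2cafneg and m2cafpos. This is a check of the labels and not a result. The vcaf gate is not described by NCAM, so Ncam1 does not check the vcaf label. RNA of Pecam1 and Ly6c1 was found in both populations, by the values below, although their proteins were gated out. Epcam did not pass the test but was higher in vcaf in a fit of the 6 libraries alone (-0.53 log2, m2cafneg minus vcaf, adjusted p = 0.0184). Ncam1 was measured at 30.02, 26.1 and 37.2 CPM in m2cafneg, 19.7, 15.9 and 19 CPM in vcaf and 585 ± 20.3 CPM in m2cafpos (mean ± SD). Pdgfra was measured at 555, 586 and 468 CPM in m2cafneg and 4.44, 7.26 and 8.49 CPM in vcaf. Mcam, which encodes CD146, was at 4.66, 4.97 and 19.8 CPM in m2cafneg and 295, 267 and 245 CPM in vcaf. Transcripts of each population were detected in the other gate at a low level. In vcaf, Pdgfra stood at 0.801%, 1.24% and 1.81% of its level in m2cafneg of the same mouse, and Lum at 1.08%, 1.28% and 2.01%. In m2cafneg, Rgs5 stood at 0.0837%, 0.169% and 1.15% of its level in vcaf of the same mouse, and Myh11 at 0.0662%, 0.615% and 4.43%. The m2cafneg library of mouse 31 was the highest of the 3 for both mural genes, and it was also the highest for Higd1b, Des, Gja4, Mcam, Notch3 and Acta2. Of the 9 mural genes compared in this way, Kcnj8 alone was highest in another library, at 3.66% of its level in vcaf in mouse 30 against 2.63% in mouse 31. Whether such transcripts came from a few mural cells in the gate was not tested.

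RNA of cell types that the sort should have removed was present in both populations. The summed level of 30 luminal and milk protein genes was 24228, 16585 and 37010 CPM in m2cafneg and 24163, 30207 and 50239 CPM in vcaf, against a mean of 5704 CPM in m2cafpos and 5409 CPM in icaf. The populations overlapped, and 28 of the 30 did not pass the test. The 2 that did, Csn1s2a and Prlr, were higher in vcaf, and this count was 0 after rescaling, without the mouse as a block, without mouse 27, and without the m2cafneg library of mouse 27 or 31 or the vcaf library of mouse 30. It was 1 without mouse 31, without the m2cafneg library of mouse 30 or the vcaf library of mouse 27, 4 without the vcaf library of mouse 31, and 11 in a fit of the 6 libraries alone. The 21 macrophage and monocyte genes summed to 698 to 1107 CPM in m2cafneg and 648 to 1463 CPM in vcaf, and 19 of the 20 tested did not pass. Endothelial genes summed to 405 to 838 CPM in m2cafneg and 1412 to 1682 CPM in vcaf, without overlap. Of the 19 tested, 13 were higher in vcaf and 1, Tek, was higher in m2cafneg. The 13 became 8 after rescaling, 4 without the block, 5 without mouse 27, 8 without mouse 30, 8 without the m2cafneg library of mouse 30 and 7 without the vcaf library of mouse 27. Most of the sum in vcaf came from Esam, Eng and Plvap, of which Esam was measured at 551, 579 and 542 CPM there. Whether this RNA came from endothelial cells in the gate or from the perivascular cells themselves was not tested. Pecam1, which encodes CD31, was measured at 45, 67.2 and 96 CPM in vcaf and 15.4, 29.7 and 74.8 CPM in m2cafneg. Adipocyte genes summed to 165 to 314 CPM in m2cafneg and 615 to 1330 CPM in vcaf, mainly Fabp4 (293 to 701 CPM in vcaf), while Adipoq, a defining adipocyte gene, was at 0.353 to 2.98 CPM in vcaf. Of the 10 adipocyte genes tested, 5 were higher in vcaf, with a list median of 1.28 log2 in favour of vcaf. The 5 became 3 after rescaling, without the block, without any of the 3 mice, without the m2cafneg library of mouse 27 or 30 and without the vcaf library of mouse 30. Ccl21a, a lymphatic endothelial gene, had 0 reads in all 6 libraries. The part of these cells in the differences below was not tested beyond a fit with an epithelial covariate. A fit with the mean log2 level of the luminal genes as a covariate gave 1712 genes higher in m2cafneg (11.1%) and 4000 higher in vcaf (25.9%), of which 1658 and 3688 were called without the covariate.

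**Figure D2:**
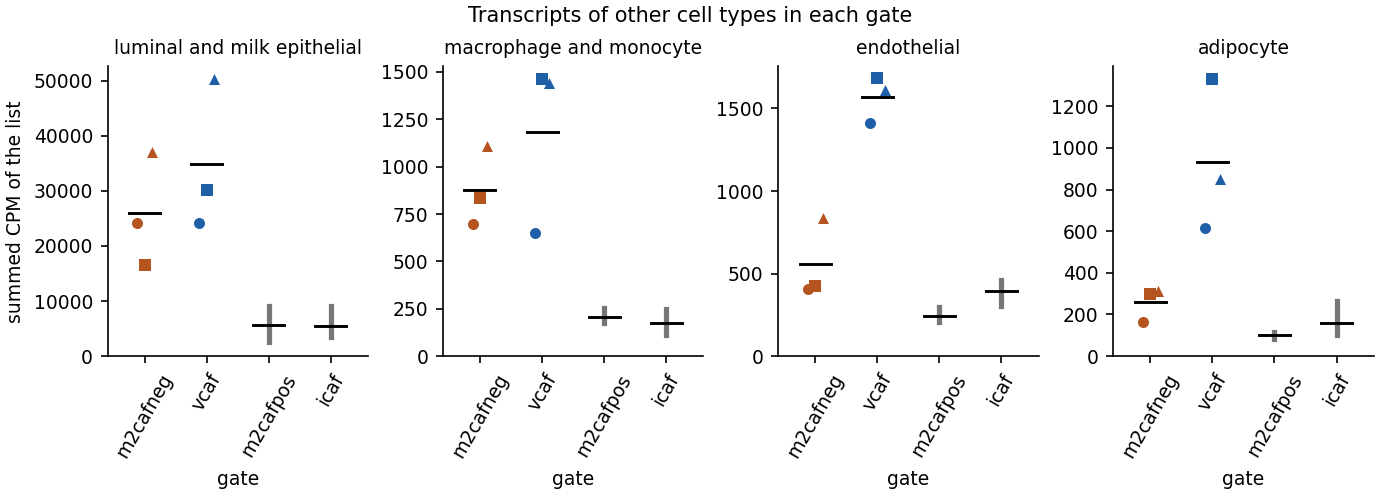
Summed CPM of 4 lists of other cell types, with a point for each m2cafneg and vcaf library (circle, mouse 27; square, mouse 30; triangle, mouse 31), a line for the mean of each gate and a grey bar for the range over the 3 libraries of m2cafpos and icaf. The epithelial sum reached 37010 CPM in m2cafneg and 50239 CPM in vcaf, and all 6 of these libraries lay above the m2cafpos and icaf libraries in this list.

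Pericyte genes had the largest median difference of the 26 lists of lineage and pathway genes. Of 20 tested, 18 were higher in vcaf, with a median difference over the list of 4.67 log2 in favour of vcaf, and all 18 had no overlap between the libraries and held after rescaling and with any library or mouse left out. Mcam, a sort gene, is among the 18, and its direction was set by the gates. In bulk samples such as these, fewer cells of a type and less RNA per cell cannot be told apart. Higd1b (ENSMUSG00000020928, chromosome 11, 102835849 to 102838040), a mitochondrial protein gene found mainly in pericytes, was measured at 0.718, 0.45 and 4.27 CPM in m2cafneg and 551, 547 and 416 CPM in vcaf, a difference of 7.73 ± 0.34 log2 (adjusted p = 7.52e-09). Cox4i2 (ENSMUSG00000009876, chromosome 2, 152754173 to 152765037), an isoform of a cytochrome c oxidase subunit that responds to oxygen, was measured at 0.762, 0.877 and 3.57 CPM in m2cafneg and 281, 214 and 239.7 CPM in vcaf. The difference was 6.63 ± 0.25 log2 (adjusted p = 2.67e-09). Desmin (Des, ENSMUSG00000026208, chromosome 1, 75360329 to 75368579), the intermediate filament protein of muscle and mural cells, was measured at 3.09, 1.12 and 12.1 CPM in m2cafneg and 453, 472 and 383 CPM in vcaf. The difference was 6.49 ± 0.41 log2 (adjusted p = 1.44e-07). For all 3 genes the m2cafneg library of mouse 31 was the highest of its population and still far below the lowest vcaf library. Kcnj8 and Abcc9, the pore and regulatory subunits of the ATP-sensitive potassium channel of vessels, ranged over 12.7 to 29 and 8.14 to 14.3 CPM in m2cafneg and over 793 to 1178 and 577 to 812 CPM in vcaf. Gucy1a1 and Gucy1b1, the subunits of the guanylate cyclase that senses nitric oxide, were higher in vcaf by 4.42 ± 0.26 and 3.65 ± 0.15 log2, and Cspg4, which encodes the NG2 proteoglycan, by 3.25 ± 0.25 log2. The differences were smaller for Steap4, a metalloreductase gene (2.0 ± 0.17 log2), and for Ebf1, a transcription factor gene (1.57 ± 0.16 log2), which were also expressed in m2cafneg at 163 to 182 and 193 to 345 CPM. The other 2 listed genes went the opposite way. Postn, which encodes the matrix protein periostin, was higher in m2cafneg (4706, 2526 and 3843 CPM in m2cafneg against 544, 617 and 455 CPM in vcaf; 2.74 ± 0.20 log2, adjusted p = 6.11e-07). Anpep, an aminopeptidase gene, was higher in m2cafneg by only 0.31 ± 0.11 log2 (adjusted p = 0.0377). This call ended without mouse 27 or mouse 31 (adjusted p = 0.259 and 0.101) and without the m2cafneg library of mouse 27 or 31 or the vcaf library of mouse 27 or 30 (adjusted p of 0.0921 to 0.185).

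**Figure D3:**
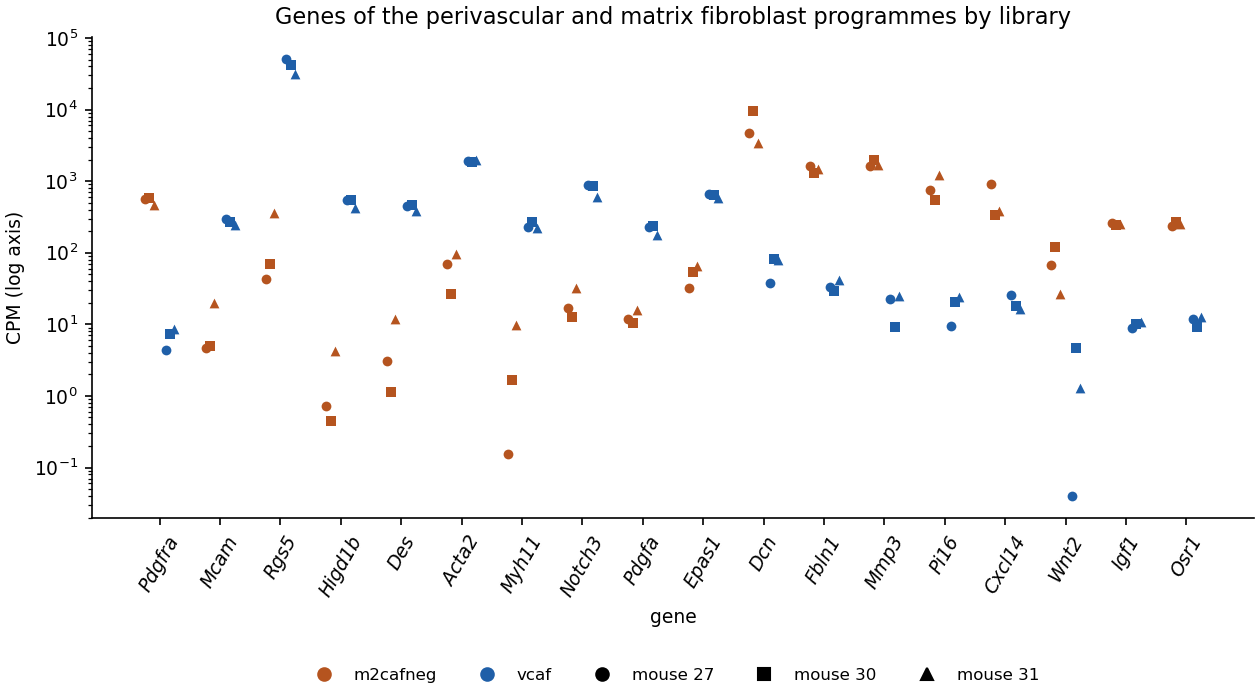
CPM on a log axis for 18 genes in the 3 m2cafneg and 3 vcaf libraries, with the marker shape giving the mouse. No gene shown overlaps between the gates, from Rgs5 (357 CPM at most in m2cafneg and 31133 CPM at least in vcaf) to Osr1 (239 CPM at least in m2cafneg and 12.5 CPM at most in vcaf). The m2cafneg library of mouse 31 (triangle) is the highest of its gate for the mural genes from Mcam to Epas1. Pdgfra and Mcam are sort genes, and their direction was set by the gates.

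Smooth muscle contractile genes were higher in vcaf almost throughout, with 26 of 27 tested past the test in that direction and a median difference of 2.95 log2 in favour of vcaf. After rescaling, 24 of the 27 passed. Acta2 (ENSMUSG00000035783, chromosome 19, 34241090 to 34255590), the smooth muscle actin used as a marker of contractile fibroblasts, was measured at 69, 26.6 and 95.1 CPM in m2cafneg and 1941, 1833 and 1988 CPM in vcaf, where the 3 mice were nearly equal. The difference was 5.07 ± 0.28 log2 (adjusted p = 4.32e-08). Myl9 (ENSMUSG00000067818, chromosome 2, 156775420 to 156781658), the regulatory light chain of smooth muscle myosin, was measured at 38.6, 35 and 40.8 CPM in m2cafneg and 1233, 1130 and 1118 CPM in vcaf (4.89 ± 0.13 log2, adjusted p = 2.39e-10). Mylk, the kinase that acts on this chain, was higher in vcaf by 4.4 ± 0.24 log2. Myh11 (ENSMUSG00000018830, chromosome 16, 14194535 to 14291372), the myosin heavy chain of mature smooth muscle, was measured at 0.152, 1.66 and 9.82 CPM in m2cafneg and 230.3, 271 and 222 CPM in vcaf, and its m2cafneg values spread more between mice than those of Myl9. Myocd, the coactivator of serum response factor that drives this programme, was low in both, at 0.0435, 0 and 0.304 CPM in m2cafneg and 7.05, 11.4 and 5.27 CPM in vcaf. Srf itself was at 6.57 to 10.5 CPM in m2cafneg and 16 to 21 CPM in vcaf (1.05 ± 0.16 log2 higher in vcaf, adjusted p = 3.03e-04). Tagln, a calponin family gene, was measured at only 8.29, 9.19 and 9.98 CPM in vcaf. Its annotation overlaps the end of Pcsk7 on the other strand, and whether the counting used strand is not given in the sources used here. Itga8, an integrin of mesenchymal cells, was the single listed gene that did not pass (22.8, 16.2 and 18.9 CPM in m2cafneg against 18.4, 17.7 and 21.4 CPM in vcaf).

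Serum response factor binds the CArG box, which is CC, then 6 bases that are A or T, then GG. RefSeq promoters (GRCm38.p6) were available for 23 of the contractile genes, and the 250 bases before the transcription start were searched on both strands. A CArG box with at most 1 substitution was found in 10 of the 23 (43.5%), against 21.1% of the 27025 genes with a promoter and 4 of 21 genes of the fibrillar collagen list (19.0%). An exact box was found in 2 of the 23 (8.70%), Myl9 and Ldb3, against 1.62% of all genes. A match is only a match of letters. The stretches that hold a pair of matches in Acta2, Myl9 and Lmod1 are shown because these genes lie among the contractile genes higher in vcaf, with the matches in capitals and each stretch written along the strand of its gene. They lie at chr19:34255383-34255472 (minus strand), chr2:156775288-156775389 (plus strand) and chr1:135324609-135324673 (plus strand).
Acta2: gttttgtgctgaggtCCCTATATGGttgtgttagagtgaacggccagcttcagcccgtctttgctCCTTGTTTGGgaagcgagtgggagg
Myl9: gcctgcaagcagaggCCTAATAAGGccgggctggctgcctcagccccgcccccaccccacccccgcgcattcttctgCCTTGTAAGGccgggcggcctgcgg
Lmod1: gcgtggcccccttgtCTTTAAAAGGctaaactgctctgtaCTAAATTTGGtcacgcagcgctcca

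Vasoactive receptors differed in which receptor was high in which population. Of 36 receptor and cyclic nucleotide signalling genes tested, 18 were higher in vcaf and 9 in m2cafneg, against 32.2% and 12.7% of all genes. After rescaling these were 15 and 10, against 12.5% and 17.3%. The vcaf side held receptors for catecholamines, endothelin, vasopressin and angiotensin. Adra2b, an alpha-adrenergic receptor gene, was measured at 0, 0 and 0.95 CPM in m2cafneg and 84.8, 68.8 and 62 CPM in vcaf, with no read in 2 of the 3 m2cafneg libraries. The difference was 5.85 ± 0.24 log2 (adjusted p = 4.68e-09). Ednrb, an endothelin receptor gene, was measured at 5.18, 11.1 and 17 CPM in m2cafneg and 236, 160.1 and 169.9 CPM in vcaf (4.08 ± 0.61 log2 higher in vcaf). The related receptor gene Ednra was measured at 319, 115 and 258 CPM in m2cafneg and 369.9, 265 and 266 CPM in vcaf and did not pass the test (adjusted p = 0.0788), but was higher in vcaf without mouse 31 (0.0436) or without its vcaf library (0.0250). Avpr1a, a vasopressin receptor gene, and Agtr1a, an angiotensin receptor gene, were higher in vcaf by 3.59 ± 0.24 and 2.43 ± 0.28 log2. The sphingosine-1-phosphate receptors split, with S1pr3 higher in vcaf (556 to 762 CPM in vcaf against 91.7 to 183 CPM in m2cafneg; adjusted p = 4.16e-07). S1pr2 was higher in m2cafneg (166 to 192 CPM in m2cafneg against 66.1 to 73.4 CPM in vcaf; adjusted p = 3.81e-07) and S1pr1 not past the test (0.14 ± 0.25 log2). Prostaglandin receptors split likewise. Ptgir, the prostacyclin receptor gene, was higher in vcaf by 1.88 ± 0.24 log2, and Ptger3 and Ptger4, receptor genes for prostaglandin E, were higher in m2cafneg by 3.44 ± 0.28 and 2.05 ± 0.19 log2. The natriuretic peptide receptor genes Npr1 and Npr2 were higher in m2cafneg by 1.54 ± 0.29 and 1.86 ± 0.20 log2.

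Ion channel and pump genes were higher in vcaf for 19 of 21 tested (16 after rescaling, and 14 at fewest with a library or mouse left out). The single call for m2cafneg, Kcnma1, ended with either of mice 30 and 31 or with any of 5 libraries left out. Trpc6 (ENSMUSG00000031997, chromosome 9, 8544142 to 8680741), a cation channel gene of receptor signalling in vessels, was measured at 0.218, 0.81 and 1.22 CPM in m2cafneg and 189, 133 and 139 CPM in vcaf. The difference was 6.49 ± 0.23 log2 (adjusted p = 2.11e-09). Atp1b2, a sodium pump subunit gene, was at 36.2 to 50.1 CPM in m2cafneg and 615 to 976 CPM in vcaf. Ano1, a calcium-activated chloride channel gene, was lower in m2cafneg but still at 91.6 to 203 CPM there, against 702 to 802 CPM in vcaf. Kcnmb1, the subunit gene that tunes the large calcium-activated potassium channel of smooth muscle, was higher in vcaf by 3.91 ± 0.23 log2. Among 10 RGS genes tested, 4 were higher in vcaf, against 32.2% of all genes (4 after rescaling, against 12.5%). Rgs4 (ENSMUSG00000038530, chromosome 1, 169741477 to 169747642) was measured at 5.38, 2.77 and 6.71 CPM in m2cafneg and 641, 529.6 and 387 CPM in vcaf. Rgs16 was at 13.8, 16.5 and 13 CPM in m2cafneg and 379, 354 and 245 CPM in vcaf. Rgs2, Rgs12 and Rgs19 lay between -0.06 and 0.12 log2 and did not pass. Rgs3 did not pass on the CPM scale (0.19 ± 0.13 log2, adjusted p = 0.254) but was higher in m2cafneg after rescaling (0.45 log2, adjusted p = 0.0152) and without the m2cafneg library of mouse 30 (adjusted p = 0.0427). Rgs10 was higher in m2cafneg (21, 17.4 and 13.4 CPM in m2cafneg against 6.25, 6.6 and 6.96 CPM in vcaf; 1.24 ± 0.16 log2, adjusted p = 6.33e-05). Outside the lists, the 15 genes with the largest difference in favour of vcaf held Olfr558, an odorant receptor gene (0.261, 0.36 and 2.17 CPM in m2cafneg and 314, 273 and 276 CPM in vcaf). Itga7, a laminin-binding integrin gene, was also among them (1.96, 5.89 and 8.21 CPM in m2cafneg and 679.7, 563 and 515 CPM in vcaf).

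In the Notch pathway the receptor of mural cells, some of the ligands and some of the targets were higher in vcaf, while Notch2 was higher in m2cafneg. Of 19 genes tested, 9 were higher in vcaf, 1 in m2cafneg and 9 did not pass, and the split was the same after rescaling. The shares of all genes were 32.2% for vcaf and 12.7% for m2cafneg (12.5% and 17.3% after rescaling). Notch3 (ENSMUSG00000038146, chromosome 17, 32120820 to 32166852), the receptor of mural cells, was measured at 16.9, 12.5 and 32 CPM in m2cafneg and 897, 843 and 594 CPM in vcaf. The difference was 5.26 ± 0.30 log2 (adjusted p = 5.41e-08). Notch1 was higher in vcaf by 1.0 ± 0.16 log2 and Notch2 was higher in m2cafneg by 0.92 ± 0.18 log2 (165, 248 and 139 CPM in m2cafneg against 97.4, 106 and 80.8 CPM in vcaf, adjusted p = 0.00151). Of the ligands, Jag1 was measured at 85.3, 75 and 88.6 CPM in m2cafneg and 333, 314 and 191 CPM in vcaf (1.7 ± 0.19 log2 higher in vcaf, adjusted p = 1.71e-05). Dlk1, a non-canonical ligand gene, was at 0.784, 1.53 and 1.6 CPM in m2cafneg and 89.6, 109 and 65.6 CPM in vcaf. Jag2, Dll1 and Dll4 did not pass the test, and Dll4 was higher in vcaf without mouse 31 (adjusted p = 0.0385). Of the targets, Hey2 was higher in vcaf by 3.35 ± 0.20 log2 and Hes1 by 0.93 ± 0.14 log2. Heyl was measured at 357, 109 and 377 CPM in m2cafneg and 443, 314 and 257 CPM in vcaf (adjusted p = 0.336, and 0.0491 without mouse 31 or 0.0337 without its vcaf library, higher in vcaf). Hey1 was at 41.5, 20.2 and 69.2 CPM in m2cafneg and 34.3, 55.7 and 76.1 CPM in vcaf (adjusted p = 0.203), and both overlapped between the populations. Rbpj, the DNA-binding partner of the Notch intracellular domain, did not pass the test (12.6 to 14.7 CPM in m2cafneg and 11.5 to 14.1 CPM in vcaf; difference 0.05 ± 0.14 log2). The letters that RBPJ binds, GTGGGAA or TTCCCAC on the other strand, were found within 250 bases before the start in 2 of 15 Notch pathway genes (13.3%; Hey2 and Lfng), against 6.18% of all genes. The match in Hey2, which was the target with the largest difference, is in capitals below (chr10:30842969-30843005, minus strand).
Hey2: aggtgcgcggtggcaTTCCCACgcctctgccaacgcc

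Transcription factors of the 2 lineages were divided in both directions, with 25 of 59 higher in vcaf and 16 in m2cafneg. These stood against 32.2% and 12.7% of all genes. After rescaling the counts were 21 and 17, against 12.5% and 17.3%. Epas1 (ENSMUSG00000024140, chromosome 17, 86753700 to 86833410), a hypoxia-inducible factor subunit expressed in vessels, was measured at 32.2, 54.1 and 65.3 CPM in m2cafneg and 671, 643 and 584 CPM in vcaf. The difference was 3.68 ± 0.24 log2 (adjusted p = 1.78e-07). Mef2c, a muscle and vascular factor, and Nr2f2, an orphan nuclear receptor of veins and mesenchyme, were higher in vcaf by 3.31 ± 0.26 and 2.83 ± 0.22 log2. Foxs1 and Tbx2 were higher in vcaf by 2.39 ± 0.26 and 2.32 ± 0.31 log2. Tbx20 had 0 reads in each m2cafneg library, which allows up to 0.0675 CPM, and was measured at 5.43, 2.14 and 3.31 CPM in vcaf. On the other side, Osr1 (ENSMUSG00000048387, chromosome 12, 9570116 to 9581500), a factor of fibro-adipogenic progenitors, was measured at 239, 272 and 256 CPM in m2cafneg and 11.9, 9.3 and 12.5 CPM in vcaf, with the 3 mice close together in each population. The difference was 4.4 ± 0.13 log2 (adjusted p = 4.59e-10). Bnc2, Meox1, Osr2 and Msx1 were higher in m2cafneg by 2.94 ± 0.17, 2.85 ± 0.22, 2.64 ± 0.17 and 2.42 ± 0.21 log2. Related factors went apart, since Meox2 was higher in vcaf by 1.91 ± 0.18 log2 and Meox1 in m2cafneg, and Zeb2 was higher in vcaf by 1.84 ± 0.16 log2 and Zeb1 in m2cafneg by 0.61 ± 0.10 log2. Among Hox genes, 7 of 19 were higher in vcaf and 2 in m2cafneg, shares near those over all genes (32.2% and 12.7%). The 7 became 4 after rescaling, without mouse 27 or without mouse 30. The 2 became 0 without mouse 31 and 1 without mouse 30 or without the m2cafneg library of mouse 30 or the vcaf library of mouse 30 or 31.

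**Figure D4:**
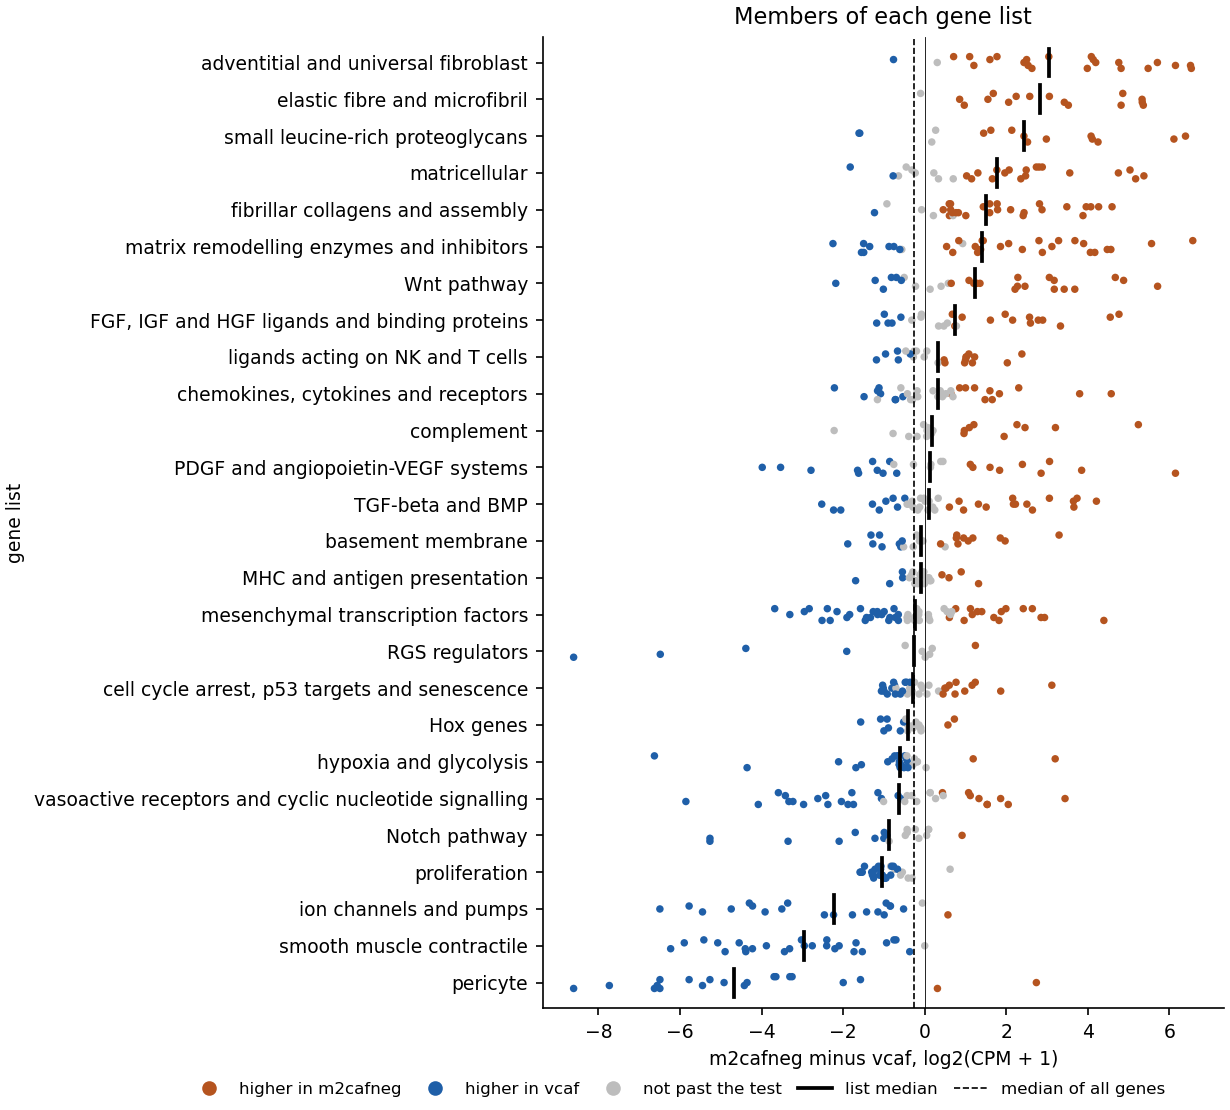
Difference between the gates (m2cafneg minus vcaf on log2(CPM + 1), x axis) for the tested members of 26 lists, each point a gene coloured by its call, with the list median as a bar and the median of all genes, -0.26, as a dashed line. The lists run from adventitial and elastic fibre genes, with medians of 3.05 and 2.82 log2, to contractile and pericyte genes, with medians of -2.95 and -4.67 log2.

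Genes of the interstitial matrix were higher in m2cafneg. Of 30 fibrillar collagen and collagen assembly genes, 25 were higher in m2cafneg, and the list median was 1.52 log2. Col1a1 (ENSMUSG00000001506, chromosome 11, 94936224 to 94953042), the main chain of type I collagen, was measured at 58496, 44741 and 42550 CPM in m2cafneg and 7671, 7267 and 5708 CPM in vcaf, so vcaf also carried it at a high level. The difference was 2.82 ± 0.24 log2 (adjusted p = 2.16e-06). Loxl1 (ENSMUSG00000032334, chromosome 9, 58287738 to 58313186), which encodes an enzyme that crosslinks elastin and collagen, was at 2452, 1955 and 1651 CPM in m2cafneg and 96.7, 154 and 72.5 CPM in vcaf (4.27 ± 0.21 log2, adjusted p = 1.75e-08). Lox, which encodes a related enzyme, was at 313, 297 and 277 CPM in m2cafneg and 15.7, 25.7 and 17.1 CPM in vcaf (3.88 ± 0.15 log2). Col14a1, a collagen on the fibril surface, and the type VI chain gene Col6a6 were higher in m2cafneg by 3.96 ± 0.19 and 3.49 ± 0.18 log2. Col6a3, another type VI chain, did not pass the test (0.22 ± 0.19 log2, adjusted p = 0.365). A single member was higher in vcaf, Col5a3, a type V chain gene (253, 331 and 239 CPM in m2cafneg against 778, 789.6 and 422 CPM in vcaf; 1.23 ± 0.20 log2, adjusted p = 3.87e-04). Its relatives Col5a1 and Col5a2 were higher in m2cafneg by 1.44 ± 0.19 and 1.6 ± 0.11 log2. Without mouse 27, or without its m2cafneg library, 2 members were higher in vcaf.

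Small leucine-rich proteoglycans, which bind collagen fibrils and set their spacing, showed 2 of the 6 largest differences in favour of m2cafneg. Of 15 tested, 11 were higher in m2cafneg and 2 in vcaf, with a median of 2.44 log2, and the counts held with each library or mouse left out. Lum (ENSMUSG00000036446, chromosome 10, 97565128 to 97572703), which encodes lumican, was measured at 2721, 2804 and 2484 CPM in m2cafneg and 29.5, 35.9 and 49.9 CPM in vcaf. The difference was 6.11 ± 0.15 log2 (adjusted p = 1.50e-10). Ogn and Podn were higher in m2cafneg by 4.25 ± 0.20 and 4.08 ± 0.19 log2, and Bgn, which encodes biglycan, by 1.62 ± 0.19 log2, since vcaf also held 1425 to 1892 CPM of it. Aspn, which encodes asporin, and Chad, which encodes chondroadherin, went the other way, with Aspn at 149.98 to 200.04 CPM in m2cafneg and 496 to 605 CPM in vcaf (1.59 ± 0.18 log2, adjusted p = 2.78e-05). Elastic fibre genes were higher in m2cafneg for 15 of 16 tested, and Ltbp4 alone did not pass (-0.1 ± 0.16 log2). Fbln1 (ENSMUSG00000006369, chromosome 15, 85205949 to 85286535), a fibulin gene, was measured at 1617, 1321 and 1456 CPM in m2cafneg and 33.5, 29.7 and 41.3 CPM in vcaf, and it had the smallest adjusted p of all genes tested. The difference was 5.36 ± 0.10 log2 (adjusted p = 2.60e-11). Mfap4 and Mfap5, genes of microfibril proteins, were higher by 5.34 ± 0.15 and 4.82 ± 0.21 log2 and Eln, which encodes elastin, by 3.06 ± 0.18 log2, with 1281 to 1657 CPM in m2cafneg and 162 to 191 CPM in vcaf.

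Matrix remodelling enzymes were divided between a large set higher in m2cafneg and a small set higher in vcaf. Of 33 tested, 23 were higher in m2cafneg and 8 in vcaf, against 12.7% and 32.2% of all genes. The 8 became 6 after rescaling and 5 without mouse 27. Mmp3 (ENSMUSG00000043613, chromosome 9, 7445822 to 7455975), the stromelysin gene, had the largest difference of all genes in favour of m2cafneg by the naming rule, at 1648, 1968 and 1663 CPM against 22.9, 9.04 and 25 CPM. The difference was 6.58 ± 0.28 log2 (adjusted p = 6.48e-09). Mmp2, a gelatinase gene, was measured at 3602, 5431 and 3447 CPM in m2cafneg and 155, 237 and 163 CPM in vcaf (4.48 ± 0.16 log2). Htra3, a secreted serine protease gene, was at 1076, 2490 and 986 CPM in m2cafneg and 18.9, 43.2 and 27.3 CPM in vcaf (5.56 ± 0.20 log2). In the opposite direction, Timp3, an inhibitor of metalloproteinases that is bound to matrix, was measured at 197, 290.4 and 233 CPM in m2cafneg and 1233, 858 and 1365 CPM in vcaf (2.25 ± 0.21 log2 higher in vcaf, adjusted p = 4.87e-06). Timp1 and Timp2 were higher in m2cafneg by 1.37 ± 0.19 and 1.44 ± 0.17 log2. Adamts1, Adamts4 and Adamts9, genes of secreted proteases, were higher in vcaf by 0.87 ± 0.12, 1.49 ± 0.13 and 1.55 ± 0.22 log2, and Adamts5 was higher in m2cafneg by 3.29 ± 0.18 log2.

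Of 27 matricellular genes, 18 were higher in m2cafneg and 2 in vcaf (1 after rescaling, without mouse 31 or without either of its libraries, and 4 without mouse 30), with a median of 1.77 log2. Smoc2 (ENSMUSG00000023886, chromosome 17, 14279506 to 14404790), a secreted calcium-binding protein gene, was measured at 2449, 1025 and 2159 CPM in m2cafneg and 35.5, 27.4 and 72 CPM in vcaf (5.38 ± 0.18 log2, adjusted p = 1.55e-09). Cilp and Thbs4 were higher by 5.04 ± 0.31 and 5.17 ± 0.29 log2. Sparcl1 was higher in vcaf, at 3929, 4054 and 2750 CPM against 1020, 769 and 1254 CPM (1.82 ± 0.27 log2, adjusted p = 1.99e-04). Ccn1 and Ccn2, targets of mechanical signalling, were abundant in both populations (1346 to 1700 and 622 to 1343 CPM in m2cafneg, 1385 to 2410 and 1136 to 1873 CPM in vcaf) and did not pass the test. Ccn1 was higher in vcaf without mouse 30 (adjusted p = 0.0144) or without its m2cafneg library (0.0147). Basement membrane genes were mixed, with a median of -0.08 log2 10 of 24 higher in m2cafneg and 8 in vcaf, the latter near the 32.2% over all genes. The 8 became 5 after rescaling, with edgeR, with the epithelial covariate, without mouse 27 or 30, and without the m2cafneg or the vcaf library of mouse 27. The type IV collagen chains of the general basement membrane were higher in vcaf, with Col4a1 at 1323, 1608 and 1556 CPM in m2cafneg and 4042, 4133 and 3058 CPM in vcaf (1.32 ± 0.15 log2, adjusted p = 3.02e-05) and Col4a2 higher by 1.27 ± 0.18 log2. Lama5 and Nid2 were also higher in vcaf, by 1.88 ± 0.35 and 1.11 ± 0.11 log2. Lama2 and Lamc3, genes of laminin chains, were higher in m2cafneg, with Lama2 at 279, 278 and 269.7 CPM in m2cafneg and 80.9, 71.8 and 57.5 CPM in vcaf (1.97 ± 0.16 log2, adjusted p = 1.37e-06), and Lamc3 was higher by 3.3 ± 0.33 log2.

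Genes of adventitial and universal fibroblasts, a fibroblast state found around vessels and in many tissues, were higher in m2cafneg for 21 of 23 tested, with a median of 3.05 log2. Pdgfra, a sort gene, is among the 21, and its direction was set by the gates. Pi16 (ENSMUSG00000024011, chromosome 17, 29317680 to 29330593), a peptidase inhibitor gene that marks this state, was measured at 757, 540.02 and 1231 CPM in m2cafneg and 9.39, 20.6 and 24.3 CPM in vcaf, the m2cafneg library of mouse 31 being the highest. The difference was 5.48 ± 0.26 log2 (adjusted p = 1.26e-08). Dpep1, a dipeptidase gene, and Penk, which encodes proenkephalin, spread more between mice, with Penk at 171, 839 and 158 CPM in m2cafneg, where mouse 30 stood apart, and 0.821, 2.64 and 3.29 CPM in vcaf (6.54 ± 0.45 log2, adjusted p = 2.80e-07). Cd34, Clec3b and Dpt were higher by 3.05 ± 0.24, 4.76 ± 0.23 and 4.13 ± 0.24 log2. The same genes were present in icaf, which held 2405 ± 526 CPM of Pi16, 1880 ± 309 CPM of Cd34 and 5696 ± 431 CPM of Dpt (mean ± SD, n = 3). Ly6a, which encodes Sca-1, was measured at 212, 322 and 145 CPM in m2cafneg and 45.1, 29.9 and 43.7 CPM in vcaf. Ly6c1, whose protein was gated out of both populations, was at 53.9, 81.3 and 63.7 CPM in m2cafneg and 19.98, 30.5 and 43.5 CPM in vcaf. Anxa3 was the single member higher in vcaf, and without mouse 27 none was. Outside the lists, Crabp1, a retinoic acid binding protein gene, and Fmo1, a monooxygenase gene, were among the 15 largest differences in favour of m2cafneg. Crabp1 was at 265, 84.5 and 164 CPM in m2cafneg and 3.74, 1.63 and 3.04 CPM in vcaf, and Fmo1 was at 258, 334 and 305 CPM in m2cafneg and 6.33, 4.38 and 5.21 CPM in vcaf.

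Ligands and receptors of the PDGF and VEGF families were divided by member. Of 25 genes tested in these and the angiopoietin families, 10 were higher in vcaf and 9 in m2cafneg, against 32.2% and 12.7% of all genes. After rescaling these were 8 and 10, against 12.5% and 17.3%. Pdgfa (ENSMUSG00000025856, chromosome 5, 138976014 to 138997370), the ligand gene for PDGFRa, was measured at 11.8, 10.5 and 15.7 CPM in m2cafneg and 227, 235 and 179 CPM in vcaf. The difference was 3.98 ± 0.21 log2 (adjusted p = 3.59e-08). The receptor gene Pdgfra, counted among the 9, was on the m2cafneg side, but as a sort gene its direction was set by the gates. Pdgfb was low in both, at 1.39, 2.5 and 4.9 CPM in m2cafneg and 12.5, 8.26 and 10.4 CPM in vcaf, and Pdgfd was higher in m2cafneg by 1.18 ± 0.21 log2. Pdgfrb, a sort gene of both populations, was measured at 907, 491 and 674 CPM in m2cafneg and 2382, 1999 and 1933 CPM in vcaf. Pgf, which encodes placental growth factor, and Flt1, its receptor gene, were both higher in vcaf, by 2.79 ± 0.29 and 3.53 ± 0.36 log2, and Flt1 is also expressed by endothelial cells. The lymphatic growth factor genes Vegfc and Vegfd were higher in m2cafneg. Vegfc was at 19 to 22.6 CPM in m2cafneg and 2.16 to 5.21 CPM in vcaf (2.4 ± 0.25 log2, adjusted p = 9.66e-06), and Vegfd was at 12.8, 47.3 and 9.54 CPM in m2cafneg and 0.721, 1.53 and 1.76 CPM in vcaf (3.06 ± 0.34 log2). Vegfa was at 1.69 to 2.43 CPM in m2cafneg and 0.795 to 1.71 CPM in vcaf and did not pass the test, but was higher in m2cafneg after rescaling (adjusted p = 0.0489) and when the vcaf library of mouse 31 was left out (0.0303). Angpt2 was higher in vcaf by 1.16 ± 0.16 log2, and Angptl1 in m2cafneg by 3.85 ± 0.33 log2.

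In the TGF-beta and BMP families, 15 of 38 genes tested were higher in m2cafneg and 9 in vcaf, against 12.7% and 32.2% of all genes. After rescaling these were 16 and 6, against 17.3% and 12.5%, and the 9 became 5 without mouse 27. The TGF-beta receptor genes were on the m2cafneg side, with Tgfbr2 (ENSMUSG00000032440, chromosome 9, 116084293 to 116175360) at 459, 494 and 407 CPM in m2cafneg and 84.3, 87.3 and 66.1 CPM in vcaf (2.51 ± 0.10 log2, adjusted p = 4.33e-09). Tgfbr3 was higher by 2.16 ± 0.15 log2, and Tgfbr1 by 0.95 ± 0.11 log2. The coreceptor gene Eng, also counted among the endothelial genes above, was higher in vcaf (1.11 ± 0.14 log2). The receptor gene Acvrl1 was not past the test (-0.17 ± 0.09 log2). Of the ligands, Tgfb3 did not pass the test (263, 181 and 356 CPM in m2cafneg against 232, 242 and 295 CPM in vcaf). BMP ligands were split. Bmp4 (ENSMUSG00000021835, chromosome 14, 46383520 to 46390669) was measured at 30.9, 35.6 and 22 CPM in m2cafneg and 1.68, 0.832 and 1.71 CPM in vcaf (3.66 ± 0.28 log2 higher in m2cafneg, adjusted p = 7.40e-07). Bmp7 and Gdf10 were also higher in m2cafneg, by 3.74 ± 0.37 and 4.21 ± 0.37 log2. Bmp2 and Bmp5 were higher in vcaf, by 2.52 ± 0.38 and 2.23 ± 0.23 log2. The antagonist genes Chrd and Fst were higher in m2cafneg by 3.65 ± 0.24 and 2.18 ± 0.20 log2. Of the Id genes, which BMP signals induce, Id1 and Id4 were higher in vcaf by 0.95 ± 0.20 and 2.06 ± 0.22 log2, and Id2 and Id3 did not pass the test. Id3 was higher in vcaf without mouse 30 (adjusted p = 0.0430), without its m2cafneg library (0.0197) or without the vcaf library of mouse 31 (0.0318).

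**Figure D5:**
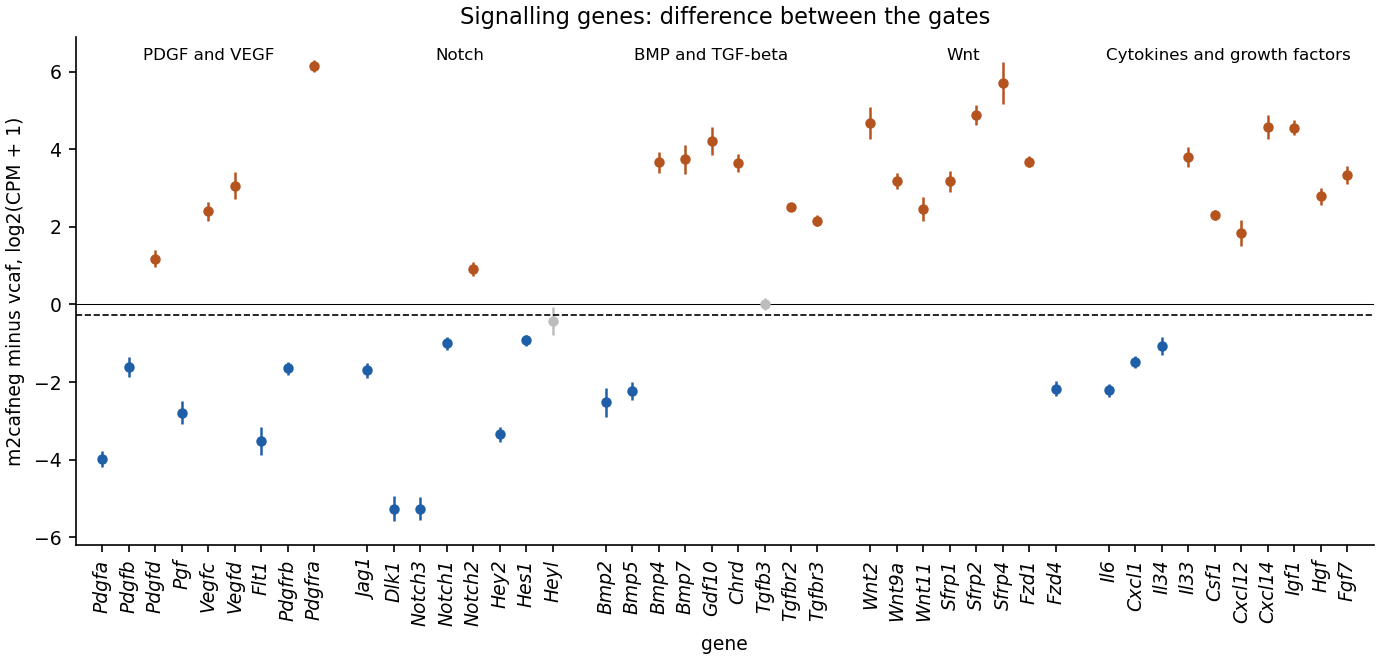
Difference between the gates (m2cafneg minus vcaf, log2(CPM + 1), points with SE bars, n = 3 libraries a gate) for ligands, receptors and regulators of 5 signalling groups, coloured as higher in m2cafneg (orange), higher in vcaf (blue) or not past the test (grey). The dashed line is the median of all genes (-0.26), and within each group members lie on both sides, such as Vegfd and Pdgfa, Bmp4 and Bmp2, or Cxcl14 and Il6.

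Wnt pathway genes were mostly higher in m2cafneg, with 17 of 28 tested in that direction and a median of 1.24 log2. The share of all genes in that direction was 12.7%, and 32.2% of all genes were higher in vcaf. The 6 higher in vcaf were fewer in several fits: 3 after rescaling, without mouse 30, without the m2cafneg library of mouse 30 or without the vcaf library of mouse 27, 2 without the m2cafneg library of mouse 27, and 1 without mouse 27. Wnt2 (ENSMUSG00000010797, chromosome 6, 17988940 to 18030585) was measured at 66.6, 120.2 and 26.3 CPM in m2cafneg and 0.04004, 4.66 and 1.27 CPM in vcaf, where mouse 27 was below the level of 3 reads. The difference was 4.68 ± 0.42 log2 (adjusted p = 2.86e-06). Wnt9a was measured at 71.2, 50.2 and 53.3 CPM in m2cafneg and 4.82, 5.36 and 6.29 CPM in vcaf (3.18 ± 0.20 log2). The secreted inhibitors were on the same side. Sfrp2 was at 401, 981 and 316 CPM in m2cafneg and 17.8, 17.7 and 13 CPM in vcaf (4.88 ± 0.25 log2, adjusted p = 2.66e-08). Sfrp4 was higher by 5.71 ± 0.54 log2, Dkk2 by 3.42 ± 0.39 log2 and Dkk3 by 2.28 ± 0.12 log2. Of the Frizzled receptor genes, Fzd1 was higher in m2cafneg (173, 123 and 138 CPM in m2cafneg against 10.7, 11.5 and 8.72 CPM in vcaf; 3.68 ± 0.14 log2, adjusted p = 2.74e-09), and Fzd2 likewise by 2.29 ± 0.14 log2. Fzd4 was higher in vcaf (22.1, 24.5 and 21.3 CPM in m2cafneg against 116, 121 and 83.6 CPM in vcaf; 2.18 ± 0.19 log2, adjusted p = 2.63e-06). Axin2, a target gene of the canonical pathway, was measured at 6.23, 14.6 and 8.26 CPM in m2cafneg and 5.47, 6.08 and 5.8 CPM in vcaf and passed only after rescaling (adjusted p = 0.0963, and 0.0414 after rescaling).

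Of 25 FGF, IGF and HGF family genes, 13 were higher in m2cafneg and 5 in vcaf, against 12.7% and 32.2% of all genes. The 5 became 2 without mouse 27 or with edgeR, and 3 without mouse 30 or its m2cafneg library. Igf1 (ENSMUSG00000020053, chromosome 10, 87858265 to 87937042) was measured at 261, 241 and 254 CPM in m2cafneg and 8.75, 10.0 and 10.7 CPM in vcaf, with the 3 mice within a narrow range in each. The difference was 4.55 ± 0.20 log2 (adjusted p = 6.74e-09). Its receptor gene Igf1r was at 28.4 to 35.8 CPM in m2cafneg and 27.9 to 52.2 CPM in vcaf and did not pass the test, but was higher in vcaf without mouse 31 (adjusted p = 0.0188) or without its vcaf library (0.00413). The IGF binding protein genes Igfbp6 and Igfbp4 were higher in m2cafneg by 4.77 ± 0.24 and 2.6 ± 0.13 log2. Igfbp5, abundant in both, did not pass (1197, 914 and 1677 CPM in m2cafneg against 963, 1595 and 1439 CPM in vcaf). Hgf and Fgf7, growth factor genes of mesenchyme that act on epithelium, were higher in m2cafneg. Hgf was at 8.84, 10.01 and 5.62 CPM in m2cafneg and 0.621, 0.166 and 0.157 CPM in vcaf. Fgf7 was at 18.4, 25.2 and 11.4 CPM in m2cafneg and 0.621, 1.15 and 0.784 CPM in vcaf (3.33 ± 0.23 log2, adjusted p = 3.51e-07). Hbegf, an EGF receptor ligand gene, was higher in vcaf by 1.18 ± 0.15 log2.

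Of 33 cytokine genes tested, 11 were higher in m2cafneg and 8 in vcaf, against 12.7% and 32.2% of all genes. After rescaling these were 13 and 5, against 17.3% and 12.5%. The vcaf count was thus not above the share of all genes on the CPM scale. Il6 (ENSMUSG00000025746, chromosome 5, 30013114 to 30019981) was higher in the perivascular population, at 121, 117 and 81.3 CPM against 22.9, 24.7 and 18.4 CPM in m2cafneg (difference 2.21 ± 0.17 log2, adjusted p = 6.30e-07). Il6st, which encodes the shared signalling receptor of its family, was also higher in vcaf (1.12 ± 0.14 log2). So was Cxcl1, a neutrophil chemokine gene (179.9, 133 and 129 CPM in m2cafneg against 378, 450.2 and 402 CPM in vcaf; 1.49 ± 0.15 log2, adjusted p = 9.51e-06). On the m2cafneg side, Cxcl14 (ENSMUSG00000021508, chromosome 13, 56288643 to 56296551) was measured at 916, 336 and 383 CPM in m2cafneg and 25.9, 17.8 and 16.3 CPM in vcaf. The difference was 4.58 ± 0.30 log2 (adjusted p = 1.89e-07). Il33, an alarmin gene, was measured at 452, 172 and 442 CPM in m2cafneg and 34.4, 11.2 and 28.6 CPM in vcaf (3.8 ± 0.25 log2, adjusted p = 2.23e-07), with mouse 30 lowest in each population. Csf1, the macrophage growth factor gene, was at 420.2, 301 and 276 CPM in m2cafneg and 73.8, 58.4 and 64.3 CPM in vcaf (2.31 ± 0.13 log2), and Cxcl12 was higher by 1.83 ± 0.34 log2. The inflammatory chemokine genes Ccl2, Cxcl9 and Cxcl10 did not pass the test, with Ccl2 at 55.4 to 183 CPM in m2cafneg and 114 to 200.03 CPM in vcaf. Ccl2 was higher in vcaf in a fit of the 6 libraries alone (adjusted p = 0.0347) or with the epithelial covariate (0.0371), and Cxcl9 was higher in m2cafneg without the vcaf library of mouse 30 (0.0241).

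Complement genes were higher in m2cafneg for 9 of 20 tested, and the other 11 did not pass. Masp1, a protease gene of the lectin pathway, was measured at 213, 158 and 226 CPM in m2cafneg and 3.003, 3.66 and 6.68 CPM in vcaf (5.24 ± 0.18 log2, adjusted p = 2.07e-09). C3, the central component, was at 318, 264 and 265 CPM in m2cafneg and 18.9, 33 and 40.9 CPM in vcaf (3.21 ± 0.21 log2, adjusted p = 1.75e-07). The C1q genes C1qa, C1qb and C1qc, which are made by macrophages, lay between 0.05 and 0.17 log2 and did not pass. MHC and antigen presentation genes mostly did not separate the populations, with 15 of 23 not past the test. Each population had 4 that were higher there, against 12.7% of all genes for m2cafneg and 32.2% for vcaf. The 4 in m2cafneg became 7 with edgeR. The 4 in vcaf became 1 after rescaling or with edgeR, and 2 without mouse 27 or without either of its libraries. Cd74, the invariant chain of class II molecules, was measured at 399, 397 and 547 CPM in m2cafneg and 383, 443 and 723 CPM in vcaf. Tapbp, which loads peptides onto class I molecules, was higher in m2cafneg by 0.9 ± 0.10 log2. For ligands acting on NK and T cells, 11 of 23 genes were higher in m2cafneg and 5 in vcaf, against 12.7% and 32.2% of all genes. The 11 became 7 without mouse 27. The 5 became 1 after rescaling and without the m2cafneg library of mouse 30, 2 without mouse 27 or without either of its libraries, and 3 without the vcaf library of mouse 30. Entpd1 (ENSMUSG00000048120, chromosome 19, 40612366 to 40741602), which encodes the ectonucleotidase CD39, was measured at 156, 166 and 154 CPM in m2cafneg and 17.4, 38.9 and 37.9 CPM in vcaf (2.39 ± 0.30 log2, adjusted p = 5.65e-05). Vsir, which encodes the checkpoint ligand VISTA, was at 49.5, 66 and 58.6 CPM in m2cafneg and 11.6, 12.9 and 16 CPM in vcaf (2.03 ± 0.13 log2, adjusted p = 1.96e-07). Cd274, which encodes PD-L1, was low, at 4.22, 3.4 and 4.46 CPM in m2cafneg and 1.62, 1.39 and 1.49 CPM in vcaf (1.0 ± 0.19 log2 higher in m2cafneg). Nectin2, a ligand gene of NK receptors, was higher in vcaf (42.1, 41.2 and 59.2 CPM in m2cafneg against 118, 102 and 103 CPM in vcaf; 1.18 ± 0.13 log2, adjusted p = 1.42e-05).

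The series title concerns senescent stroma, and the cyclin-dependent kinase inhibitor genes were measured in both populations. They did not go in 1 direction. Cdkn2b (ENSMUSG00000073802, chromosome 4, 89306299 to 89311039), which encodes p15, was measured at 71.6, 46.6 and 61.4 CPM in m2cafneg and 6.23, 6.23 and 5.29 CPM in vcaf (difference 3.12 ± 0.26 log2, adjusted p = 1.44e-06), and Cdkn1c was higher in m2cafneg by 1.87 ± 0.26 log2. Cdkn2a, which encodes p16 and p19ARF, was near the limit of the filter, at 1.39, 0.495 and 1.42 CPM in m2cafneg and 0, 0.129 and 0.549 CPM in vcaf. It was higher in m2cafneg by 0.77 ± 0.20 log2 (adjusted p = 0.00875), but the call ended without mouse 27 (adjusted p = 0.145, and 0.0538 without only its m2cafneg library). Cdkn1a, which encodes p21, was measured at 119.7, 124 and 162 CPM in m2cafneg and 210.1, 190.01 and 151 CPM in vcaf, with overlap. It was higher in vcaf on the CPM scale (0.44 ± 0.15 log2, adjusted p = 0.0298), but not after rescaling (adjusted p = 0.394), without mouse 27 (0.290) or without mouse 30 (0.175). The call also ended without the m2cafneg or the vcaf library of either of these mice (adjusted p of 0.100 to 0.157), and without mouse 31 the difference was -0.71 log2 (m2cafneg minus vcaf). Over the list of 36 cell cycle arrest, p53 target and senescence genes, 11 were higher in m2cafneg (7 without mouse 27) and 14 in vcaf (6 after rescaling and 6 without mouse 27). The share higher in vcaf was near that over all genes on either scale (32.2%, and 12.5% after rescaling). The 11 of 36 higher in m2cafneg, also 11 after rescaling, stood against 12.7% of all genes, and 17.3% after rescaling.

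Proliferation genes were higher in vcaf for 25 of 32 tested, with a median difference of 1.05 log2 in favour of vcaf. After rescaling 21 passed in favour of vcaf, and edgeR on the recovered reads, which called 10.4% of all genes in that direction and 17.1% in the other, called 16. Mki67 was measured at 7.31, 4.72 and 14.4 CPM in m2cafneg and 32.2, 25.5 and 20.8 CPM in vcaf (1.57 ± 0.31 log2, adjusted p = 0.00181). Mcm6, a replication helicase gene, was at 29.4, 27.1 and 42.4 CPM in m2cafneg and 93.8, 55.5 and 92 CPM in vcaf (1.25 ± 0.23 log2, adjusted p = 0.00119). For both genes the m2cafneg library of mouse 31 was the highest of its population and still below every vcaf library. The epithelial sum was also higher in vcaf within mice 30 and 31, by the values given above, and the endothelial sum in all 3 mice. With the luminal level as a covariate 27 of the 32 were higher in vcaf. Beyond that fit, the part of epithelial, endothelial or other cells in the proliferation difference was not tested. Of 28 hypoxia and glycolysis genes, 20 were higher in vcaf, 12 after rescaling and 12 without the mouse as a block. Beside Cox4i2 and Ndufa4l2, which are mural genes, the differences of glycolytic enzyme genes were small, such as 0.74 ± 0.13 log2 for Tpi1 and 0.65 ± 0.12 log2 for Gapdh (0.47 and 0.38 after rescaling). Adm, which encodes the vasodilator adrenomedullin, went the other way (161, 370.1 and 108 CPM in m2cafneg against 23.6, 15.4 and 19.8 CPM in vcaf; 3.2 ± 0.34 log2 higher in m2cafneg, adjusted p = 1.28e-05). Of the immediate early and stress genes that tissue dissociation induces, 13 of 19 did not pass the test, including Fos at 3288, 4050 and 3414 CPM in m2cafneg and 3651, 4285 and 4606 CPM in vcaf. In each direction 3 passed, against 12.7% of all genes for m2cafneg and 32.2% for vcaf. After rescaling 4 were higher in m2cafneg and 1 in vcaf, against 17.3% and 12.5%. The 3 in m2cafneg became 1 without mouse 30 or its m2cafneg library. Nr4a1 was higher in vcaf by 1.46 ± 0.15 log2. Of 10 mitochondrially encoded genes, 5 were higher in vcaf, and their part in the differences above was not tested. This count was 0 after rescaling, without mouse 30 and without either of its libraries, 1 without mouse 27 or its m2cafneg library, 3 without the vcaf library of mouse 27 or without the block, 8 without mouse 31 and 9 without its m2cafneg library.

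To see which differences from vcaf were also differences between the NCAM gates, m2cafneg was tested directly against m2cafpos. Of all genes, 4404 were higher in m2cafneg (28.5%) and 724 lower (4.68%) on the CPM scale. Median-of-ratios size factors were 0.837 to 0.844 in m2cafpos, below those of all m2cafneg libraries. After rescaling, 3736 genes differed in either direction, against 5128 on the CPM scale. The rescaled split by direction is not given here, so the uneven split may depend on the scale. The summed luminal level was 5704 ± 3305 CPM in m2cafpos and 25941 ± 10320 CPM in m2cafneg (mean ± SD, n = 3). With the luminal level as a covariate 3 genes of the whole table passed, so the CPM-scale counts also depended on that choice. The covariate was 7.22, 6.88 and 7.95 log2 in m2cafneg and 5.28, 4.05 and 5.97 log2 in m2cafpos, without overlap. Gate and luminal level therefore cannot be told apart in this comparison. Not every large difference from vcaf separated the NCAM gates. Fbln1 differed by 0.07 ± 0.10 log2 between them (adjusted p = 0.625), and Mmp3 by 0.09 ± 0.28 log2 (adjusted p = 0.827). The genes higher in m2cafneg than in both vcaf and m2cafpos by the largest margins were Inmt, Myoc, Scg3, Angptl7, Bmp4 and Vit. Of these, 5 were also present in icaf, with 22.9 ± 5.24 CPM of Bmp4 (against 29.5 ± 6.88 CPM in m2cafneg), 37 ± 10.8 CPM of Myoc, 34.3 ± 21.4 CPM of Inmt, 40.9 ± 10.9 CPM of Scg3 and 23.9 ± 5.8 CPM of Vit (mean ± SD), and Angptl7 was at 0.421 ± 0.295 CPM there. Myoc, which encodes the secreted protein myocilin, was measured at 50.1, 51 and 15.5 CPM in m2cafneg, 0.28, 0.259 and 0.157 CPM in vcaf and 1.03 ± 0.811 CPM in m2cafpos (mean ± SD). This was 4.84 ± 0.29 log2 above vcaf and 4.2 ± 0.29 log2 above m2cafpos (adjusted p = 8.02e-08 and 1.21e-05). Inmt, a methyltransferase gene, was measured at 21.5, 122 and 32.4 CPM in m2cafneg, with mouse 30 the highest, and was 4.85 ± 0.47 log2 above vcaf and 4.17 ± 0.47 log2 above m2cafpos. Bmp4 was 3.27 ± 0.28 log2 above m2cafpos (adjusted p = 2.57e-05). The genes lower in m2cafneg than in both by the largest margins were Rgs4, Acta2, Cspg4, Nt5dc2, Olfm2 and Meg3. Acta2 stood at 218 ± 69.7 CPM in m2cafpos, above m2cafneg by 1.89 ± 0.28 log2 (adjusted p = 4.55e-04) and below vcaf.

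The paired difference varied most between mice for Igkc, Acta1, Gpnmb, Igha, Rgs5 and Mmp13. Igkc, an immunoglobulin gene of plasma cells, was measured at 50.4, 2.29 and 3.36 CPM in m2cafneg and 36.3, 195 and 53.7 CPM in vcaf, where mouse 27 alone was higher in m2cafneg. Igha, another such gene, was measured at 1.5, 1.84 and 20.6 CPM in m2cafneg and 94.8, 72.6 and 54.2 CPM in vcaf. Neither passed without the mouse as a block (adjusted p = 0.121 and 0.0502), and both calls ended in further fits. For Igkc these included the fits after rescaling (adjusted p = 0.0704), without mouse 30 (0.216) and without mouse 31 (0.177). For Igha they included edgeR (0.211), DESeq2 (0.144), and the fits without mouse 30 (0.107) and without the m2cafneg library of mouse 27 (0.122). Acta1, the actin of skeletal muscle, was measured at 6.9, 1.98 and 112 CPM in m2cafneg and 1.42, 1.46 and 2.9 CPM in vcaf, where mouse 31 stood apart in m2cafneg. Its call (2.28 ± 0.81 log2, adjusted p = 0.0387) ended without the m2cafneg library of mouse 27 or 31, without any vcaf library, and without mouse 27 or mouse 31 (adjusted p of 0.0579 to 0.141). The difference was 0.79 log2 without the m2cafneg library of mouse 31 and 0.99 log2 without that mouse. Gpnmb, a transmembrane glycoprotein gene of macrophages and fibroblasts, was measured at 56.1, 278 and 80.4 CPM in m2cafneg, where mouse 30 was highest, and at 5.37, 2.22 and 17.6 CPM in vcaf, and it was higher in m2cafneg in all 3 mice. Mmp13, a collagenase gene, was measured at 103, 30.8 and 71.5 CPM in m2cafneg and 0.981, 6.67 and 2.37 CPM in vcaf, again higher in m2cafneg in all 3 mice (4.06 ± 0.55 log2, adjusted p = 1.12e-04).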

How the data were processed

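RNA was sequenced from 12 sorted populations of 3 mice, and the 6 libraries of m2cafneg and vcaf are compared here. The authors deposited CPM for 55487 genes, which are reads scaled to the total of reads assigned to genes. Per the submitters' processing notes, bcl2fastq, DRAGEN and the mm10 build were used. The sources used here do not give the counting tool, the annotation release or the use of strand. CPM in each column were whole multiples of a single read in 100% of values (tolerance 0.001 reads), so read totals were recovered. A gene was kept where 3 or more of the 12 libraries reached 1 CPM (15456 genes). Values were taken as log2(CPM + 1), which understates the change of low genes, and fitted with limma 3.58.1 in R 4.3.3 over all 12 libraries, with population and mouse as terms, a mean-variance trend and Benjamini-Hochberg adjustment (threshold 0.05). The labels tie libraries to mice by number, and deviations from the population means correlated at a median r of 0.29 within a mouse (0.0843 to 0.452, 18 pairs) and -0.15 between mice (36 pairs), so the mouse was kept as a block. edgeR 4.0.16 (2649 and 1611 genes higher in m2cafneg and vcaf) and DESeq2 1.42.0 (2834 and 1920) on the recovered reads, other scalings, filters, an epithelial covariate and leaving out libraries or mice were alternatives. Separate mice are biological replicates, and each library is 1 sort. Gene models were taken from GENCODE M21 on GRCm38 (99.4% of identifiers matched), and promoters from RefSeq (GRCm38.p6). The 39 gene lists (968 entries) and the comparison itself were chosen with earlier results of these data known. Named genes were the 15 with the largest differences in each direction among those with at least 10 CPM and no overlap, up to 4 of each list by adjusted p, the 6 in each direction shared with the test against m2cafpos and the 6 that varied most between mice. Further list members were named after their values were seen, to describe roles in each list. The fitting code was tested on simulated data.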

Additional observations from a re-analysis of the deposited data

How the results depend on the processing

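With each library or mouse left out, 1396 to 1826 genes were higher in m2cafneg and 2084 to 4835 in vcaf, the lowest vcaf counts being those without mouse 27 (2084), without mouse 30 (2932) and without the m2cafneg library of mouse 27 (3144). Genes higher in vcaf numbered 1928 with median-of-ratios scaling, 1855 with TMM scaling, 1611 with edgeR, 1920 with DESeq2 and 3179 in a fit of the 6 libraries alone, while those higher in m2cafneg stayed between 1396 and 2834 in these and all other fits. Without the replicate block, 1752 and 4109 genes were higher in m2cafneg and vcaf. Calls were compared gene by gene for the fits without the block, with median-of-ratios scaling, with the covariate, of the 6 libraries alone, with edgeR and with DESeq2, and 0 were opposite to the main calls. The 5128 genes that differed between m2cafneg and m2cafpos became 3736 with median-of-ratios scaling, 3200 with edgeR, 3 with the epithelial covariate and 4041 without the block. They ranged from 2724 (without mouse 31) to 5420 with a library or mouse left out. The cause of these changes was not tested, except that leaving out samples reduces the samples tested. Adding 1 CPM shortens differences of low genes: edgeR gave (m2cafneg minus vcaf) -5.76 log2 for Myocd, 4.76 for Bnc2, 5.91 for Angptl1, 5.02 for Hgf, 1.71 for Cd274, 2.80 for Cdkn2a and 7.59 for Myoc, and DESeq2 gave -8.85 for Adra2b and 7.36 for Inmt. A single read stood for 0.0185 to 0.0225 CPM, so depth limited only genes near that level.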
